A study of Homo sapiens with 11 samples.

Results

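Expression of the metallothionein genes MT1E, MT1F, MT1G, MT1M, MT1X and MT2A was examined across 9 RNA-Seq libraries of HCC78, a lung adenocarcinoma line whose own U2AF1 carries S34F and which has the SLC34A2-ROS1 fusion. The 6 genes were chosen by name from the 57773 genes of the deposited expression table, and 4 of them averaged 1 FPKM or more (fragments scaled to transcript length and library size) and entered the tests. Libraries came from 2 stable transduced lines and from the parental line. The first transduced line carried a doxycycline-inducible, FLAG- and 6xHA-tagged wild-type (WT) U2AF1 and the other carried the same construct with the S34F mutation. Each was sequenced with induction (WT dox+ and S34F dox+, 2 libraries each) and without it (WT dox-, 2 libraries, and S34F dox-, 1 library), alongside 2 libraries of the parental line (parental dox-). All 9 libraries keep the endogenous mutation. The lines were stable subclones of transduced cells, and nothing states that replicates were separate cultures, so p-values measure only the spread between these libraries.

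The sample labels call the parental libraries doxycycline-negative, whereas a supplementary table of the study heads them as doxycycline-positive. They are used here as labelled and enter no test of doxycycline. No parental pair with and without the drug was analysed, so an effect of doxycycline cannot be told apart from an effect of the induced U2AF1.

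Metallothioneins are small, cysteine-rich proteins that bind zinc and copper and also capture toxic metals such as cadmium. When free zinc rises, the transcription factor MTF1 binds metal response elements in their promoters and raises their transcription, and the proteins then buffer the metal. Glucocorticoids and oxidative stress also induce several family members, and doxycycline, like other tetracyclines, binds divalent metal ions.

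The human genes lie in a cluster on chromosome 16 that, in the RefSeq order for GRCh38.p14, runs from MT4 and MT3 through MT2A, MT1E and MT1M to MT1F, MT1G and MT1X, with other genes and pseudogenes between them. Promoters of 2 of the 6 genes, MT2A and MT1X, were in the RefSeq promoter table used here. They are shown because the metal response elements by which the family is regulated can be read in them. Each line gives the 250 bases before the annotated start in GRCh38.p14, plus strand, at chr16:56608334-56608583 for MT2A and chr16:56682220-56682469 for MT1X. Capitals mark each match to the metal response element core TGCACNC or TGCGCNC on either strand.
MT2A: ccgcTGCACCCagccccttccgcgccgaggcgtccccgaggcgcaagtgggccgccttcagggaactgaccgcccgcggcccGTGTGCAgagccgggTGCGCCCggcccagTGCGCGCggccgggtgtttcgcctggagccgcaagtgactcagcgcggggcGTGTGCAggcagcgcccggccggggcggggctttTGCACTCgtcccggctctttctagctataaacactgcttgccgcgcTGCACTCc
MT1X: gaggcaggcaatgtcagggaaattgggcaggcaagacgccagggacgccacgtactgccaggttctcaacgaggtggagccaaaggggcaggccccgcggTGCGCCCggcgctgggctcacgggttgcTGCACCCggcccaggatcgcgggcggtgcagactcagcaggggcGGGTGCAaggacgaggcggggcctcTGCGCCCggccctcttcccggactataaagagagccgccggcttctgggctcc
MT2A held 7 matches, 5 on the plus strand and 2 on the minus strand, none overlapping, and MT1X held 4, of which 1 was on the minus strand. Among 35116 promoters of the same length, 24.8% held at least 1 match, 0.37% held at least 4 and 0.0313% held at least 7. Of the zinc genes described later, the promoter of MTF1 held 0 matches and that of the zinc exporter SLC30A1 held 1. A match describes letters in the reference and not binding in these cells.

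The family was dominated by MT2A, a broadly expressed isoform, in every library. Its FPKM was 178 and 287 in the parental libraries, 569 and 402 in WT dox-, 414 in S34F dox-, 595 and 650 in WT dox+, then 579 and 540 in S34F dox+. The parental libraries were the lowest of the 9, S34F dox+ lay just below WT dox+, and WT dox- replicate 1 overlapped S34F dox+. MT1E, an isoform of the MT1 group, was next in every library, with 94.9 and 149 FPKM in the parental line, 243 and 161 in WT dox-, 133 in S34F dox-, 325 and 357 in WT dox+, then 312 and 277 in S34F dox+. All 4 dox+ libraries were above all 5 others for MT1E, as they were for 7.64% of the genes tested.

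MT1X, the gene with the second promoter shown, was expressed at much lower levels. Its FPKM was 3.01 and 5.80 in the parental libraries, 14.1 and 5.96 in WT dox-, 4.37 in S34F dox-, 15.1 and 17.0 in WT dox+, then 20.8 and 12.9 in S34F dox+. WT dox- replicate 1 overlapped the dox+ libraries, and the remaining 4 dox- libraries did not. MT1F, another metal-binding isoform, had FPKM of 6.97 and 4.86 in the parental line, 1.59 and 2.38 in WT dox-, 1.96 in S34F dox-, 8.84 and 10.1 in WT dox+, then 6.95 and 16.3 in S34F dox+. MT1F therefore had its own order, with the parental line above the uninduced transduced lines and next to the lowest dox+ library. The share of all genes with both parental libraries above all uninduced transduced ones was not computed.

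MT1G and MT1M were near or at the bottom of the table. MT1G was listed at 0 in 5 of 9 libraries and had 0.16 FPKM in WT dox- replicate 2, 0.79 and 1.63 in WT dox+, and 2.38 in S34F dox+ replicate 2. MT1M was listed at 0 in 4 libraries and did not exceed 0.38 FPKM. Both failed the filter of 1 FPKM and no fold change is given for them. Over the 9 libraries the means were 468 FPKM for MT2A, 228 for MT1E, 11.0 for MT1X, 6.66 for MT1F, 0.551 for MT1G and 0.156 for MT1M. MT2A exceeded MT1E in 9 of 9 libraries and MT1E exceeded the other members in 9 of 9, whereas MT1X exceeded MT1F in 7 of 9, so this last pair had no fixed order.

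**Figure D1:**
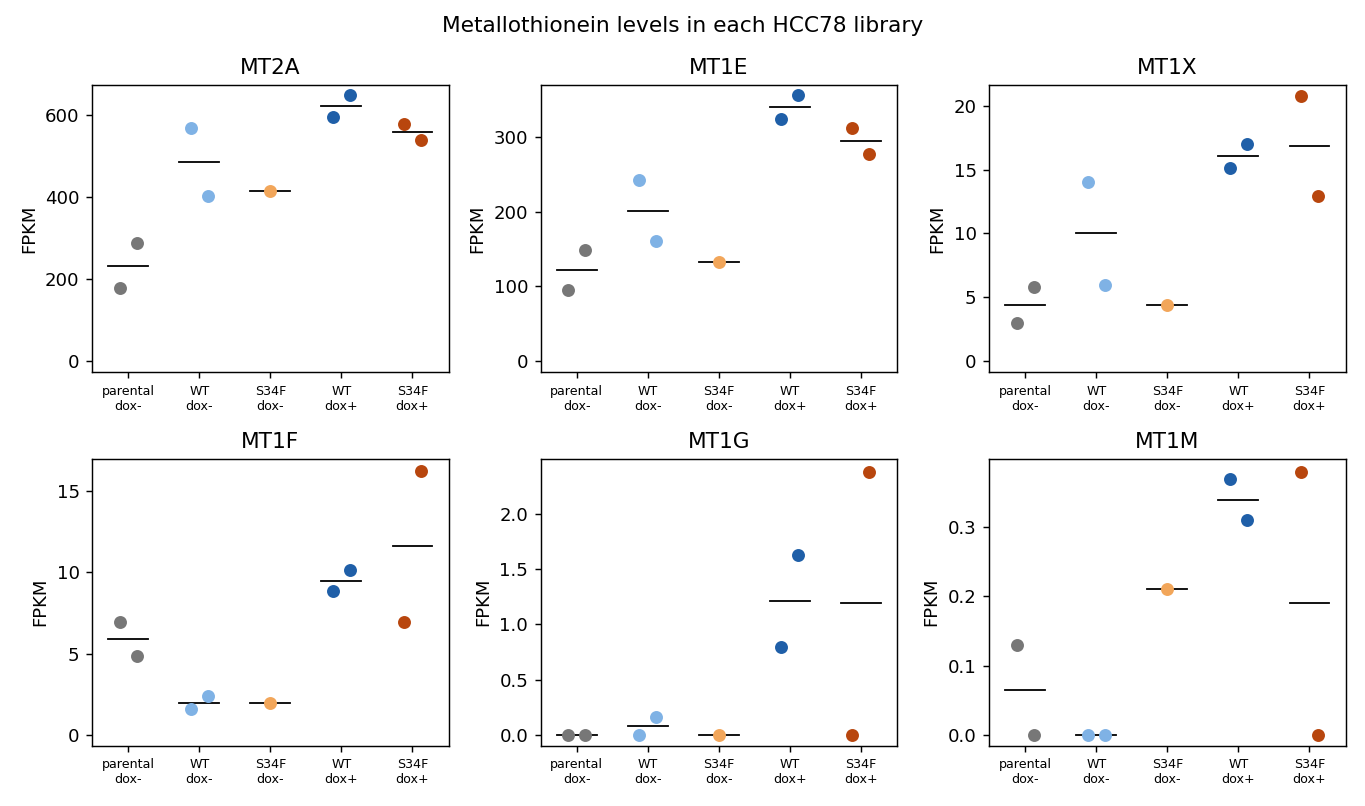
FPKM of the 6 metallothionein genes, 1 panel per gene with its own linear axis, in the 5 groups of HCC78 libraries. Points are libraries and lines are group means. MT1E separated the 4 dox+ libraries, at 277 to 357 FPKM, from the other 5, at 94.9 to 243.

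Summed over the 6 genes, metallothionein FPKM was 283 and 446 in the parental libraries, 827 and 571 in WT dox-, 554 in S34F dox-, 946 and 1036 in WT dox+, then 920 and 848 in S34F dox+. The sum was thus lowest in the parental line and highest with doxycycline. The balance between the main isoforms differed too. The ratio of MT2A to MT1E FPKM was 2.34 and 2.49 in WT dox- and 3.11 in S34F dox-, but 1.83 and 1.82 in WT dox+, 1.86 and 1.95 in S34F dox+, and 1.88 and 1.93 in the parental line. The uninduced transduced libraries held all of the ratios above 2, and those of the parental and dox+ libraries overlapped. MT2A made up 68.8% to 74.8% of the summed FPKM in the uninduced transduced libraries and 62.7% to 64.3% in the other 6. Sequences of the family are similar and the counting divides reads that fit several genes, so the split between isoforms may be less certain than their sum. How many reads were shared was not measured.

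**Figure D2:**
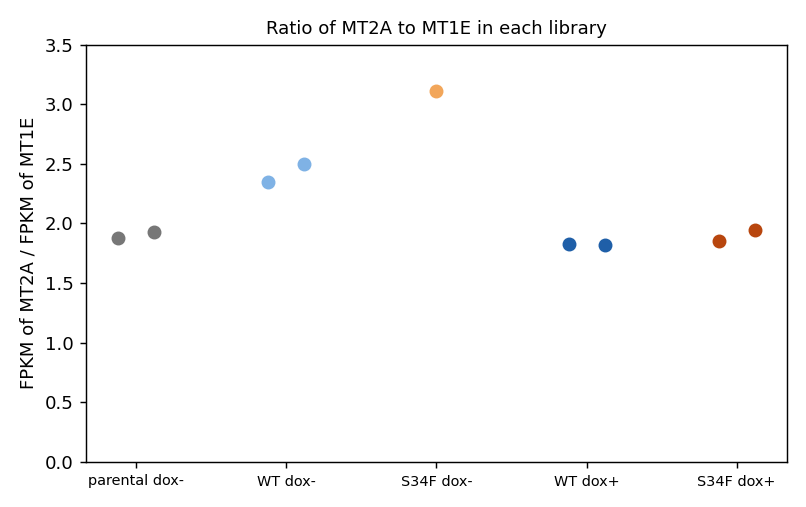
Ratio of MT2A to MT1E FPKM in each library, on a linear axis from 0, with the 5 groups along the horizontal axis. The 3 uninduced transduced libraries sit at 2.34 to 3.11 and the other 6 at 1.82 to 1.95.

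The table held 14 other metallothionein genes and pseudogenes, and each was low. The highest, the pseudogene MT2P1, reached 6.30 FPKM in 1 library and was listed at 0 in 7. MT1H reached 2.75 FPKM, MT1A 2.55, MT3, the form known from brain, 1.79, MT1HL1 1.69, MT1JP 1.62 and MT1B 1.39. MT1L did not exceed 0.68 FPKM, and MT4, MT1CP, MT1DP, MT1P1, MT1P3 and MT1XP1 were listed at 0 in all 9 libraries. The promoter of MT1H, the neighbor of MT1G in the cluster, held 8 matches to the metal response element core, more than MT2A, at a level far below it.

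Differences were tested with limma on log2(FPKM + 1) over the 15179 genes that averaged 1 FPKM or more, with all 5 groups in a single fit and Benjamini-Hochberg adjustment over all genes. A difference is called here where the adjusted p is under 0.05. The first comparison asked how the WT line responded to doxycycline. MT1F was higher in WT dox+ by 1.82 ± 0.36 (log2, SE; limma adjusted p = 0.142), MT1E by 0.78 ± 0.25 (limma adjusted p = 0.240), MT1X by 0.74 ± 0.41 (limma adjusted p = 0.450) and MT2A by 0.38 ± 0.24 (limma adjusted p = 0.496). None of the 4 was called by limma, where 0.00659% of all genes were called higher and 0.00659% lower, and 2 of them, MT1F and MT1E, had an unadjusted p under 0.05, against 8.80% of all genes in that direction and 5.59% in the other. Both WT dox+ libraries were above both WT dox- libraries for all 4 genes, as they were for 28.9% of all genes. The median difference of the 4 was 0.76 against 0.05 over all genes. It rested on the uninduced replicates, being 0.33 without WT dox- replicate 2 and 1.18 without WT dox- replicate 1.

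In the S34F line the same 4 genes were higher with doxycycline. MT1F differed by 1.98 ± 0.44 (log2, SE; limma adjusted p = 0.138), MT1X by 1.70 ± 0.50 (limma adjusted p = 0.202), MT1E by 1.14 ± 0.30 (limma adjusted p = 0.177) and MT2A by 0.43 ± 0.29 (limma adjusted p = 0.494). None was called by limma, where 0.198% of all genes were called higher and 0.0856% lower, while MT1F, MT1X and MT1E had an unadjusted p under 0.05, against 10.6% of all genes in that direction and 5.11% in the other. The median of the 4 was 1.42 against 0.09 over all genes. S34F dox- was a single library, which the fit assumes to vary like the other groups.

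Averaged over the lines, 2 of the 4 tested metallothioneins rose with doxycycline, and 2.79% of all genes were called higher. MT1F rose by 1.90 ± 0.29 (log2, SE; limma adjusted p = 0.0224), which is 3.74-fold on the log2(FPKM + 1) scale, a larger difference than that of 99.6% of all genes. MT1E rose by 0.96 ± 0.19 (limma adjusted p = 0.0436), or 1.95-fold. MT1X was 1.22 ± 0.32 higher and missed the threshold (limma adjusted p = 0.0776), and MT2A, the most abundant, was 0.41 ± 0.19 higher (limma adjusted p = 0.226). At an unadjusted p under 0.05, 3 of the 4 were higher, against 15.9% of all genes higher and 9.22% lower. The median of the 4 was 1.09 against 0.08 over all genes. All 4 dox+ libraries were above the 3 uninduced libraries of the transduced lines for MT1E and MT1F, as they were for 15.2% of all genes, and MT1E also kept them above the parental libraries.

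Both calls were fragile. With any 1 of the 6 replicates of WT dox-, WT dox+ and S34F dox+ left out, MT1E had a limma adjusted p from 0.0865 to 0.149 and was not called, and MT1F was called only without S34F dox+ replicate 1. The averaged difference stayed above 0 for all 4 genes in each of 64 values under alternative processing. The number of genes with at least 1 FPKM moved with induction too. In replicates 1 and 2 it came to 16053 and 17716 for WT dox+ and to 15736 and 20896 for S34F dox+, against 13661 to 14688 for the other 5 libraries, and its part in the metallothionein result was not tested. Without WT dox+ replicate 2 and S34F dox+ replicate 2, the 2 libraries with the most genes, the averaged difference was 1.58 for MT1F (limma adjusted p = 0.199), 0.97 for MT1E (limma adjusted p = 0.240), 1.34 for MT1X and 0.40 for MT2A, and 0 of 15179 genes were called, with 2827 at an unadjusted p under 0.05. Without S34F dox+ replicate 2 alone, the difference of MT1F was 1.62 (limma adjusted p = 0.0570).

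**Figure D3:**
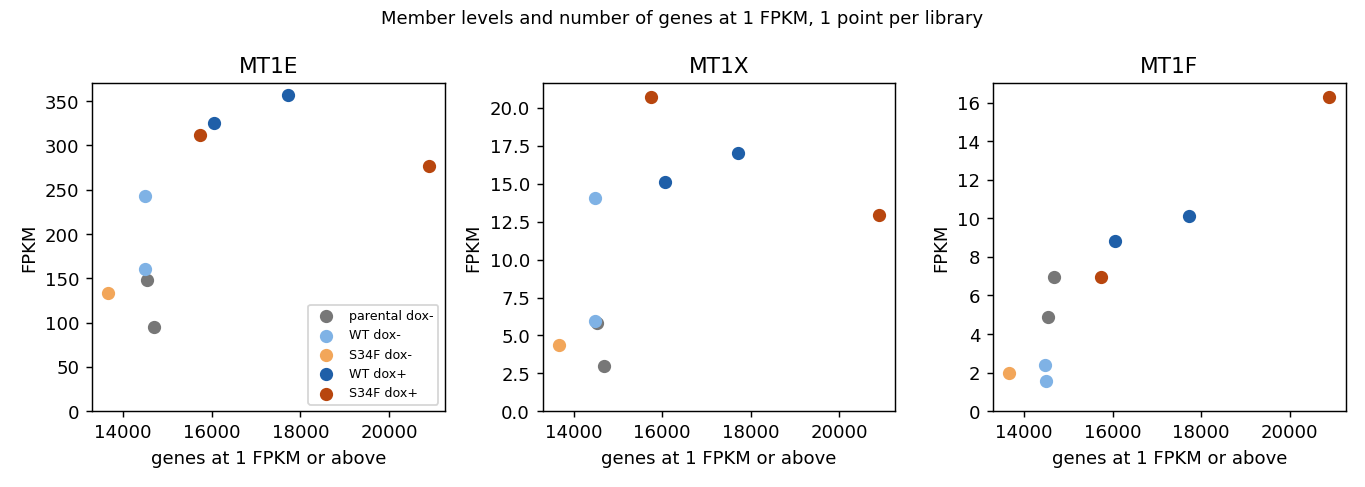
FPKM of MT1E, MT1X and MT1F against the number of genes with at least 1 FPKM, 1 point per library, colored by group, on linear axes. S34F dox+ replicate 2, with 20896 genes, has the highest MT1F at 16.3 FPKM, while its MT1E and MT1X are the lowest of the 4 dox+ libraries.

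The study was made to compare mutant with wild-type U2AF1, and the induced lines showed no called difference in the metallothioneins. Each construct was in its own line, and U2AF1 FPKM was 164 and 223 in S34F dox+ against 278 and 299 in WT dox+. The mutation, the amount of U2AF1 and the line cannot be told apart. In S34F dox+ against WT dox+, MT1E differed by -0.21 (log2; 95% interval -0.78 to 0.36), MT2A by -0.15 (-0.70 to 0.40), MT1X by 0.03 (-0.92 to 0.98) and MT1F by 0.16 (-0.68 to 1.01). The limma adjusted p was at least 0.911 for each, and 0.0198% of all genes were called higher and 0.0329% lower. None of the 4 had an unadjusted p under 0.05, against 4.01% of all genes higher and 2.77% lower. The intervals for MT1X and MT1F were the widest and still hold differences of about 1 in size. Their directions rested on single libraries, with MT1X at -0.29 without S34F dox+ replicate 1 and -0.051 without WT dox+ replicate 1, and MT1F at -0.40 without S34F dox+ replicate 2. The responses of the lines to doxycycline were also compared directly. The S34F response minus the WT response was 0.96 ± 0.64 for MT1X (log2, SE), 0.36 ± 0.39 for MT1E, 0.16 ± 0.57 for MT1F and 0.05 ± 0.37 for MT2A, and the limma adjusted p was 1 for each, with 0.00659% of all genes called higher and 0.0198% lower. None of the 4 had an unadjusted p under 0.05, against 2.21% of all genes higher and 1.21% lower. The difference rests on the single S34F dox- library.

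**Figure D4:**
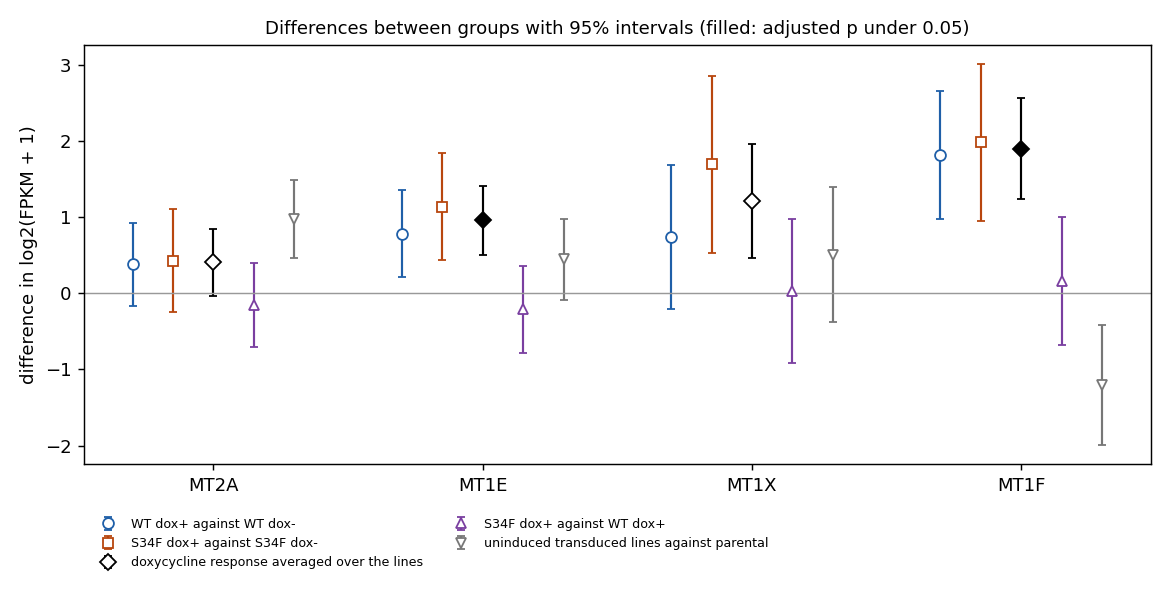
Differences in log2(FPKM + 1) for the 4 tested metallothioneins in 5 comparisons, with 95% intervals from limma. Filled symbols mark an adjusted p under 0.05, which only the averaged doxycycline response of MT1E (0.96) and MT1F (1.90) reached.

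Before induction, no metallothionein was called different between the transduced lines and the parental line. MT2A was 0.97 ± 0.22 higher in the uninduced transduced lines (log2, SE; limma adjusted p = 0.138), and MT1F was lower, at -1.21 ± 0.34 (limma adjusted p = 0.206). MT1E was 0.45 higher (limma adjusted p = 0.462) and MT1X 0.51 higher (limma adjusted p = 0.633). Values of this comparison moved with single libraries. Without parental replicate 1 they were 0.13 for MT1E, 0.12 for MT1X and 0.63 for MT2A, and without parental replicate 2 they were 0.77, 0.89 and 1.32. None of the 4 was called, and 0.105% of all genes were called higher and 0.138% lower. MT2A and MT1F had an unadjusted p under 0.05, which 6.21% of all genes reached upward and 6.86% downward. The 3 uninduced transduced libraries were all above both parental libraries for MT2A, as they were for 16.1% of all genes, and all 7 transduced libraries were above them, as for 5.30% of all genes. The subcloning of the lines and the doubt over the parental doxycycline status cannot be told apart from these differences.

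The other genes of metal handling were described from lists of zinc, copper, iron and metal-stress genes. In the averaged doxycycline response, 0 of 8 tested zinc exporters and sensors were called by limma, against 2.79% of all genes called higher and 1.09% lower, and their median of 0.07 was next to the 0.08 of all genes. The other lists below are to be read against the same shares and median. MTF1, the zinc-sensing activator of metallothioneins, had 6.49 and 9.27 FPKM in WT dox-, 9.04 in S34F dox-, 12.6 and 7.93 in WT dox+, then 3.7 and 6.67 in S34F dox+, with a difference of -0.21 ± 0.24 (limma adjusted p = 0.628). Its level was lowest in S34F dox+ replicate 1. In that library MT1X was the highest of all, while MT1F, at 6.95 FPKM, was the lowest of the dox+ libraries. A relation between MTF1 and the members was not tested. SLC30A1, the zinc exporter of the plasma membrane and itself a target of MTF1, had 4.80 and 3.60 FPKM in WT dox-, 3.96 in S34F dox-, 5.58 and 6.15 in WT dox+, then 5.88 and 6.36 in S34F dox+. The dox+ libraries of SLC30A1 lay above those of the uninduced transduced lines, as they did for 15.2% of all genes. They overlapped the parental ones, at 3.86 and 5.93 FPKM. The difference of 0.46 ± 0.18 was not called (limma adjusted p = 0.165), nor was 0.59 for SLC30A4, a vesicular zinc transporter (limma adjusted p = 0.150).

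Of 11 tested zinc importers of the SLC39 family, 0 were called by limma. Their median was -0.25, and 10 of 11 had a difference below 0, while 58.5% of all genes were above 0. All 11 averaged 5 FPKM or more, and the median of all genes at that level was -0.01 rather than 0.08. The lowest unadjusted p values were those of SLC39A14, which carries zinc and iron, at -0.59 (limma adjusted p = 0.0756), and SLC39A10, at -0.33 (limma adjusted p = 0.128). SLC39A14 had 15.5 to 16.5 FPKM in the uninduced transduced libraries, 8.67 to 12.9 with doxycycline, and 11.2 and 13.1 in the parental line, the first of which lay within the dox+ range. The share of all genes with dox+ libraries all below the uninduced transduced ones was not computed. Of 10 tested copper genes 0 were called by limma (all genes 2.79% higher, 1.09% lower) and the median was -0.19 against 0.08 over all genes, with CUTC at -0.41 (limma adjusted p = 0.0712) and COX17, a copper chaperone of cytochrome c oxidase, at -0.30 (limma adjusted p = 0.0671).

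Iron handling and metal stress held the called genes outside the family. Of 10 tested iron genes 2 were called higher and 0 lower, where 2.79% of all genes were called higher, with a median of 0.29 against 0.08 over all genes. SLC40A1, or ferroportin, the iron exporter, rose by 0.90 ± 0.18 (limma adjusted p = 0.0435), from 2.52 to 3.99 FPKM in the uninduced transduced libraries to 5.58 to 8.28 with doxycycline. The same separation of these libraries held for 15.2% of all genes. SLC11A2, the importer DMT1, rose by 0.66 ± 0.14 (limma adjusted p = 0.0485). Of 9 tested metal-stress genes 2 were called lower, where 1.09% of all genes were called lower, and 0 higher, with 4 genes above 0, 5 below and a median of -0.11. GCLM, the modifier subunit of the enzyme that starts glutathione synthesis, fell by 0.70 ± 0.12 on the log2 scale (limma adjusted p = 0.0312), and TXNRD1, thioredoxin reductase, fell by 0.68 ± 0.12 (limma adjusted p = 0.0375). TXNRD1 had 224 to 255 FPKM in the uninduced transduced libraries and 117 to 185 with doxycycline, a range that held both parental libraries, at 175 and 151. No share of all genes was computed for this downward separation. The other 7 genes of the list were not called, among them SLC7A11, the cystine importer, at 0.28 (limma adjusted p = 0.487), and HMOX1, or heme oxygenase 1, at -0.11 (limma adjusted p = 0.706), both named here after their values were seen. These 4 calls were as fragile as those of the metallothioneins, being lost in 9 to 13 of 16 alternatives each.

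Of 7 tested glucocorticoid-induced genes 0 were called by limma (all genes 2.79% higher, 1.09% lower) and the median was 0.03 against 0.08 over all genes. TSC22D3, which encodes the glucocorticoid-induced leucine zipper, was 0.63 ± 0.14 higher with doxycycline (limma adjusted p = 0.0540), with 11.7 to 12.5 FPKM in the uninduced transduced libraries, 16.3 to 22.2 with doxycycline and 26.3 and 28.8 in the parental line. Dox+ libraries all above the uninduced transduced ones were found for 15.2% of all genes. ERRFI1 was at -0.32 (limma adjusted p = 0.376). No gene of these lists was called in the other 5 comparisons.

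**Figure D5:**
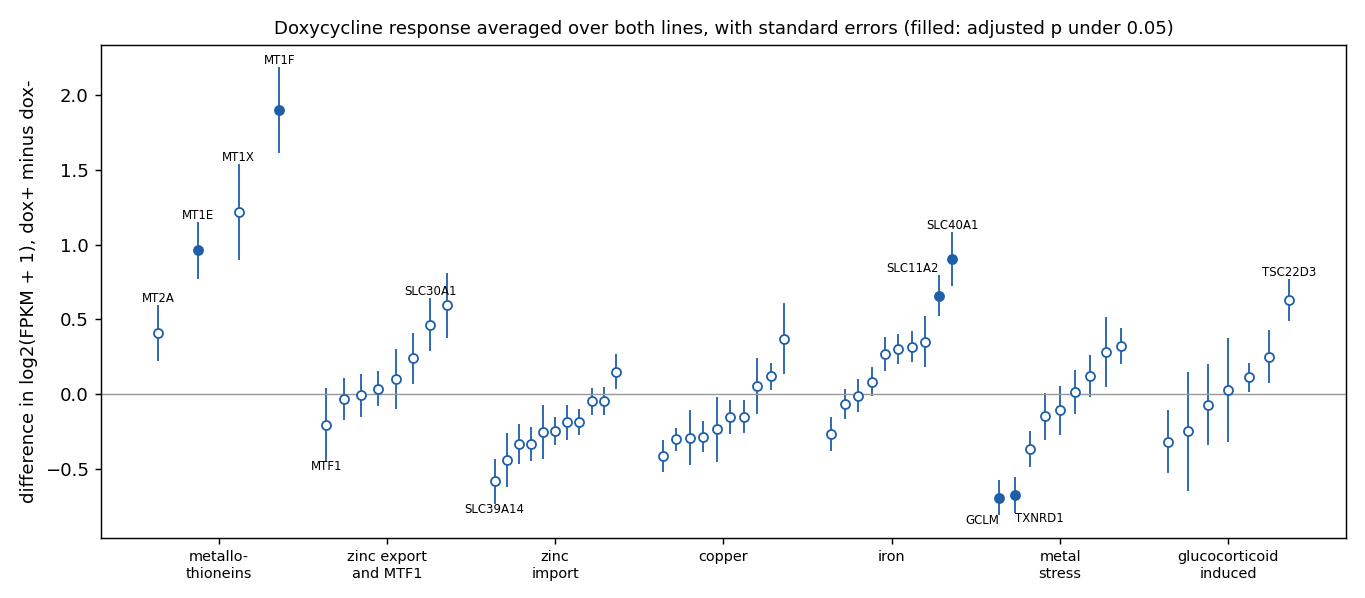
Averaged doxycycline response in log2(FPKM + 1) for each tested gene of 7 lists, ordered within a list, with standard errors from limma. Filled points mark an adjusted p under 0.05, held by MT1E, MT1F, SLC40A1, SLC11A2, GCLM and TXNRD1, and 10 of 11 zinc importers lie below 0.

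The members did not share a single profile. Over the 9 libraries, Pearson's r of log2(FPKM + 1) was 0.977 between MT1E and MT1X, 0.918 between MT1E and MT2A and 0.886 between MT1X and MT2A, but 0.447 between MT1E and MT1F, 0.380 between MT1F and MT1X and 0.145 between MT1F and MT2A. These are descriptions over libraries that share lines and treatment, and the high values include isoforms that can share reads. Among 9273 protein-coding genes that averaged 5 FPKM or more, the profiles most like the mean of the 4 tested metallothioneins were those of SYNE2 (r = 0.971), NFAT5 (0.962), NCOA6 (0.961), ZNF841 (0.958), CWF19L2 (0.956), GOLGA8B (0.953), FAT1 (0.952) and KMT2D (0.947), over 9 libraries. SYNE2, a large protein of the nuclear envelope, had 5.45 to 9.40 FPKM in the 5 dox- libraries and 18.1 to 20.2 in the 4 dox+ libraries. NFAT5, the transcription factor of the osmotic stress response, had 15.04 to 20.1 FPKM in the 5 dox- libraries and 26.7 to 28.9 in the 4 dox+ libraries. Both ends of the lower range were parental libraries, whose doxycycline status is in doubt. All 4 dox+ libraries were above all 5 others for 7.64% of the genes tested.

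Splicing of the family was read from the deposited MISO comparison of mutant with wild type, in which percent spliced in (PSI, a fraction from 0 to 1) was given without replicates, so no test was made. Coordinates are hg19. The first side of the table is taken as S34F and the second as WT, after the order in which the comparison is named, and nothing states which libraries make up each side, or which of the alternative forms the PSI counts. Of 16 events in the family, 6 had at least 10 supporting reads on each side. The abundant MT1E (chr16:56659387-56661024, plus strand) had 3 of them, with a PSI of 0.99 on both sides for a retained intron over 1191 and 2081 reads, of 0.94 and 0.96 for a skipped exon over 1230 and 2117 reads, and of 0.94 and 0.98 for an alternative 3′ splice site over 187 and 253 reads. The sides of MT1E therefore lay within 0.04 of each other. MT1F (chr16:56691606-56693215, plus strand) had the widest gap among the member events with at least 10 reads on each side, with PSI values of 0.69 (S34F) and 0.93 (WT) at an alternative 5′ splice site, over 48 and 53 reads, between donors at 56692694 and 56692652. For MT1X (chr16:56716336-56718108, plus strand) the PSI at an alternative 5′ splice site was 0.86 and 0.96 over 22 and 26 reads. The 6 MT1G events had fewer than 10 reads on at least 1 side, and the sixth event, with 51 and 110 reads, belonged to a locus named for the pseudogene MT1P3 on chromosome 20. Reads were few, replicates were not given and the deposited Bayes factors were not used. No error estimate is therefore given here for the MT1F and MT1X gaps.

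The libraries matched their labels for induction in the level of total U2AF1, and for the cell line in its markers. Total U2AF1 does not tell the WT construct from the S34F construct, and the mutant shares below are themselves labels. The parental line has no construct, so its doxycycline status was not checked. U2AF1 FPKM was 103 to 115 in the 5 dox- libraries, 278 and 299 in WT dox+, then 164 and 223 in S34F dox+, and by the labels the mutant made up 62% and 65% of U2AF1 transcripts in S34F dox+ and 12% and 14% in WT dox+. Of 11 markers of the lung adenocarcinoma line, 10 or 11 had at least 1 FPKM in every library, with a summed FPKM of 8531 to 11572. Single markers differed between the parental and transduced lines. Group means in the parental line and the transduced groups were 140 and 47.8 to 64.3 FPKM for SLC34A2. They were 32.0 and 12.2 to 17.1 for ROS1, and 8.68 and 1.82 to 3.41 for NAPSA. Of 10 tested markers, 7 were lower and 3 higher in the uninduced transduced lines than in the parental line, and 0 were called by limma. Fibroblast markers summed to 3.57 to 7.57 FPKM in the dox- libraries, with 1 or 2 of 6 genes at 1 FPKM, and to 6.23 to 13.4 with 2 to 5 of 6 in the dox+ libraries. Immune markers summed to 16.3 to 30.8 and to 21.5 to 36.6, with 1 to 3 of 5 genes at 1 FPKM, and endothelial markers to 0.38 to 0.73 and to 0.46 to 2.99, with 0 to 2 of 3. The ranges of the dox+ libraries reached higher in each of these lists, and their part in the metallothionein levels was not tested. In bulk RNA, fewer cells that express a gene and less RNA per cell cannot be told apart. Read counts were not given, so no counting interval could be set. A proxy for depth was the most common ratio of FPKM in parental replicate 1 to FPKM in each library, over genes low in both. It was 0.604 to 1.08 in the dox+ libraries and 0.984 to 1.25 in the others. FPKM is already scaled to library size, so this ratio cannot tell depth from a shift in low-expressed genes.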

How the data were processed

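Total RNA of the 9 HCC78 libraries was prepared with the SMARTer Stranded kit. Per the labels and the study's methods, the authors trimmed 150-base paired reads to 100 bases and aligned them to GRCh37/hg19 with STAR 2.3.0. They computed FPKM per gene with RSEM 1.2.29, which divides reads that fit several genes. The deposited table also holds TPM, used as an alternative. For splicing, the authors deposited MISO tables with PSI as a fraction and the read counts behind it, as 1 value per side of the comparison, without saying which libraries each side holds. Their differences and Bayes factors were not used, and the 2 iCLIP samples were not used here.

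The files hold no expression counts, so the depth is unknown and a count model (DESeq2 in the study) could not be used. log2(FPKM + 1) was fitted with limma 3.58.1 (trend, two-sided) in R 4.3.3 for the 15179 of 57773 genes that averaged 1 FPKM or more, with 5 groups and no covariate, and adjusted by Benjamini-Hochberg. On simulated data with changes of 2 log2 units, the fit recovered 200 of 200 changed genes with 7 false calls. These changes were larger than the averaged differences of the metallothioneins. Changed genes were drawn from the better expressed ones, and the simulated spread was capped below that of MT1F and MT1X. The simulation therefore does not measure how reliable the metallothionein calls are, or how many false calls these data give. The genes and lists were chosen with earlier results of these data known. All members are named, and from the other lists MTF1, SLC30A1, each gene with an adjusted p under 0.05 in any comparison and the 2 genes with the lowest p in the averaged response. Likeness used the highest Pearson r. Libraries were not paired by replicate number in the fit, and a pairing was not excluded. Alternatives covered the pseudocount, filter, TPM, scaling, quantile normalization, protein-coding genes, a replicate block, the libraries fitted and each replicate left out. Promoters came from RefSeq (GRCh38.p14), and motifs were searched on both strands in 250 bases.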

Additional observations from a re-analysis of the deposited data

How the results depend on the processing

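Of 340 values of single metallothioneins under alternatives, 307 kept their direction and their side of the threshold. In the averaged doxycycline response, the number of the 4 tested metallothioneins with a limma adjusted p under 0.05 was 2 as reported, 0 with no filter on low values, 1 with quantile normalization, 0 with only the libraries of the comparison and 0 to 1 with each replicate left out. It was 0 without the 2 dox+ libraries with the most genes at 1 FPKM, an alternative chosen after seeing the data. MT1E lost its call in 11 of 16 alternatives and MT1F in 8 of 16, and MT1X gained one among protein-coding genes only (adjusted p = 0.0418). The number of all genes called was 589 as reported, 140 with no filter, 209 with quantile normalization, 138 with only the libraries of the comparison and 10 to 347 with each replicate left out. The number of genes tested was 15179 as reported, 42789 with no filter, 10024 with a filter at 5 FPKM, 14529 with TPM and 11993 for protein-coding genes only, and the cause of the changes under the other alternatives was not tested. Over the alternatives the number of genes called ranged from 0 to 32 in WT dox+ against WT dox- (2 as reported), 0 to 148 in the S34F line (43), 0 to 29 in S34F dox+ against WT dox+ (8), 0 to 33 in the difference of the responses (4) and 4 to 148 in the uninduced lines against parental (37). In the averaged response, only with no filter did the median of all genes differ from 0 by over 0.1, at 0.16.

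With a replicate block, 1 metallothionein was called in the averaged response and 242 genes in all. Deviations of libraries with the same replicate number correlated from -0.076 to 0.037 across genes, so the numbers were not taken as pairs.

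With each replicate left out, the median of the 4 genes ranged from 0.33 to 1.18 in WT dox+ against WT dox- and from 0.13 to 0.83 in the uninduced transduced lines against parental. In S34F dox+ against WT dox+ it was -0.06 as reported and ranged from -0.25 to 0.011, the last without WT dox+ replicate 2. In that comparison MT1X turned to -0.080 with TPM and -0.015 with quantile normalization, and ranged from -0.29 to 0.35 with each replicate left out, below 0 without replicate 1 of either group. MT1F ranged from -0.40 to 0.72, below 0 only without S34F dox+ replicate 2, and turned to -0.31 without the 2 dox+ libraries with the most genes. In the difference of the responses MT2A turned to -0.10 with TPM and -0.0064 with quantile normalization, and ranged from -0.20 to 0.30 with each replicate left out. MT1F ranged from -0.40 to 0.72 there, and turned to -0.31 without the 2 dox+ libraries with the most genes. The cause was not tested.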
